A study of Homo sapiens with 18 samples.

Results

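The 6 genes NKD2, IGFBP3, TBC1D30, SLC6A8, CBS and GIPC1 were followed here because their RNA differed between THP1 cells given doxycycline and THP1 cells given none. They are 6 of the 60658 gene IDs in the expression table, matched by Ensembl ID and symbol, and all 6 were among the 17555 genes tested. They were chosen by the measured levels in THP1, so the THP1 differences are given as a description with no test. The B11 differences are tested, but with a spread to which the THP1 libraries contribute. Their p is therefore not wholly free of the choice. The question that they were chosen for was whether B11, a clone derived from THP1, shares the response to the drug.

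THP1 is a human acute monocytic leukaemia line, labelled as carrying a heterozygous NRAS G12D mutation. B11 is 1 subclone of it that received a lentiviral, doxycycline-inducible NRAS G12V with GFP, was grown with doxycycline and selected for GFP, and then received Cas9 and a pair of guide RNAs around the NRAS start codon. Its label gives a heterozygous NRAS G12V. Both lines received 0, 1 or 10 ug/ml doxycycline for 5 days, with 3 plates (A, B and C) for each line and dose, and RNA was sequenced from each of the 18 plates. The plates of a line were split from 1 grown culture, so the spread between them is that between plates. In B11 the drug also switches on the transgene, and the responses to drug and transgene cannot be told apart there. One clone was compared with its parent, so a difference between the lines and a difference particular to this clone cannot be told apart either.

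The table holds FPKM, a fragment count scaled to transcript length and library depth, which allows levels to be compared between genes. Depth, estimated from the steps of low values, was 11760000 to 16990000 fragments a library. NRAS was at 21.5 to 25.5 FPKM in the 9 THP1 libraries, at 19.8 to 22.0 in untreated B11, at 23.3 to 24.4 in B11 at 1 ug/ml and at 27.7 to 28.2 in B11 at 10 ug/ml. All 12 monocytic leukaemia markers averaged at least 1 FPKM over the 9 libraries of each line. Their summed level was 8010 to 9835 FPKM in THP1 and 7754 to 21442 in B11. CD14 reached that average in B11 through 1 ug/ml (6.03 FPKM), with means of 0.841 at 0 and 0.976 at 10 ug/ml. In B11 7 of the 12 fell and 2 rose at 10 against 0 ug/ml, where 21.3% of all genes tested were called lower and 21.6% higher. The 2 that rose were ITGAM, from a mean of 3.37 to 11.3 FPKM, and FCGR1A, from 21.4 to 48.8. The part of this shift in the B11 results below was not tested. LYZ fell there from 2781 ± 454 to 294 ± 29.8 FPKM (limma adjusted p = 2.04e-11) and CSF1R from 174 ± 13.6 to 14.1 ± 2.05 (limma adjusted p = 2.43e-12), while in THP1 LYZ averaged 731 ± 42.4 and 659 ± 84.1 and CSF1R 71.8 ± 2.49 and 50.5 ± 1.61. Summed T cell markers reached 5.52 FPKM, B cell markers 22.1, and epithelial and fibroblast markers 11.6, with CD3E, CD3G, CD8B, MS4A1, COL1A2 and DCN at 0 in every library. In B11 at 1 ug/ml, plates B and C stood apart through 1 unnamed gene ID, which took 6.51% and 3.76% of their summed FPKM and was near 0 in the rest. Results that rest on them are also given without them where that changes a call.

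Doxycycline is a tetracycline antibiotic. It serves as the ligand of tetracycline-controlled promoters in engineered cells, and it also slows protein synthesis on mitochondrial ribosomes, which resemble the bacterial ones. Mitochondrial translation stress is known to raise genes of serine, one-carbon and transsulfuration metabolism through the transcription factor ATF4. The 6 genes belong to different processes. NKD2 is a Dishevelled-binding antagonist of Wnt signalling, CBS (cystathionine beta-synthase) joins homocysteine and serine in the first step of transsulfuration, and GIPC1 is a PDZ-domain adaptor that links membrane receptors to myosin VI. IGFBP3 is a secreted protein that binds insulin-like growth factors, TBC1D30 is a Rab GTPase-activating protein, and SLC6A8 is the plasma membrane creatine transporter.

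Promoter sequence was matched in RefSeq (GRCh38.p14) for 5 of the 6 genes, the exception being TBC1D30. Each window runs from 250 bases before to 50 bases after a start site and is 300 bases long. The windows of 2 genes that were higher with the drug in THP1, NKD2 and CBS, and of 2 that were lower, IGFBP3 and SLC6A8, are shown because they let the opposite responses be set beside the sequence. They are printed 5′ to 3′ on the gene's own strand, with the GC box (GGGCGG, either strand) in capitals.
NKD2, chr5:1008552-1008851, plus strand: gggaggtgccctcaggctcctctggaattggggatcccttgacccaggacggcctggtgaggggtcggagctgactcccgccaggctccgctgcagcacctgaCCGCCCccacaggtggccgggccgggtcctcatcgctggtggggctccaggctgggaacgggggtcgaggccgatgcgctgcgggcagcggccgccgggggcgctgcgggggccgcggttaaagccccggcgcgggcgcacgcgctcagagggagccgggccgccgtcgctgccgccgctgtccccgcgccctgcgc
CBS, chr21:43076328-43076627, minus strand: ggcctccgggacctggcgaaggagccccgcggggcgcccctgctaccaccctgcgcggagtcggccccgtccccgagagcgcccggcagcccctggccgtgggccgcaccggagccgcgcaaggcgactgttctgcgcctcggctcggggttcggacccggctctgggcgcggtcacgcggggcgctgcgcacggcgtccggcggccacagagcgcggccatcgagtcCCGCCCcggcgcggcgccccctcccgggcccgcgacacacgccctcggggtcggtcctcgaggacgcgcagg
CBS, chr21:43075786-43076085, minus strand: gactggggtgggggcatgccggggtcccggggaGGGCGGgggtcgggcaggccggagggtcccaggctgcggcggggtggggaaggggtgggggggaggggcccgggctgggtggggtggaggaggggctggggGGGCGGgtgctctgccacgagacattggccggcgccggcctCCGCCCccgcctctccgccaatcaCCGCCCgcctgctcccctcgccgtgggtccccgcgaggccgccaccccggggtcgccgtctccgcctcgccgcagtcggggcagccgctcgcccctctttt
IGFBP3, chr7:45921223-45921522, minus strand: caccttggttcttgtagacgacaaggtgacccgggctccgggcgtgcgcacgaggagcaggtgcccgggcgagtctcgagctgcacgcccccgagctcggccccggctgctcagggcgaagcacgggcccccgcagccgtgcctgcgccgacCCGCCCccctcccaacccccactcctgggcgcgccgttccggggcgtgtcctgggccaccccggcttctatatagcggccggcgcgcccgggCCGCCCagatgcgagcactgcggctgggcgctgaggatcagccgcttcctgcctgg
SLC6A8, chrX:153687676-153687975, plus strand: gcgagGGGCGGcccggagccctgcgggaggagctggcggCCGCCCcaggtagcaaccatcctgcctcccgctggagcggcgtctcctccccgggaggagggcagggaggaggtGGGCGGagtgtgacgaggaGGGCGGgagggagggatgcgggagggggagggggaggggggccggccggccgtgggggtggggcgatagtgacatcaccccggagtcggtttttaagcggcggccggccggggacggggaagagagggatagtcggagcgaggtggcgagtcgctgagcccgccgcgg
The windows of NKD2, IGFBP3, SLC6A8 and GIPC1 and the 2 of CBS shown here were rich in G and C, at 74.33 to 80.67%, against a median of 58.67% and an upper quartile of 68% over 35116 RefSeq promoters. They held 32 to 50 CpG sites, where the median promoter held 14. The remaining CBS start site (chr21:43068355-43068654) was poorer, at 50.67% with 4 CpG sites. GC boxes numbered 1 in NKD2, 1 and 4 in the CBS windows shown, 2 in IGFBP3, 4 in SLC6A8 and 2 in GIPC1, and 44.95% of all promoters held at least 1. No window of these genes held the CEBP-ATF response element searched as TGATGNAAN, the cyclic AMP response element TGACGTCA or the E-box CACGTG, on either strand. Those 3 words occurred in 3.611%, 1.848% and 7.256% of all promoters.

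A gene was called where its limma p, adjusted by Benjamini-Hochberg, was below 0.05. The choice of the 6 genes fixed that all 6 are among the 1.02% called in THP1 at 10 against 0 ug/ml, and nothing is read from it. Likewise as a description, NKD2 and IGFBP3 were the 2 genes (0.0114%) called in THP1 at 1 against 0 ug/ml. That count was 0 with the replicate block, and 0 without library B or C of untreated THP1 or library B at 1 ug/ml. TBC1D30 was 1 of the 52 genes (0.296%) called at 10 against 1 ug/ml. In B11 3 of the 6 passed at 10 against 0 ug/ml, where 42.8% of all genes tested did. NKD2, CBS and GIPC1, which were higher with the drug in THP1, all rose in B11. IGFBP3, TBC1D30 and SLC6A8, which were lower with the drug in THP1, had already far lower levels in untreated B11 than in untreated THP1, and none of them passed as lower in B11. SLC6A8 was still at 10.1 ± 3.86 FPKM in untreated B11, which leaves room for a fall. At 1 against 0 ug/ml 3 of the 6 passed in B11, NKD2, CBS and SLC6A8, where 37.1% of all genes tested did. At 10 against 1 ug/ml NKD2 alone passed, where 12.8% of all genes did. With only the 9 libraries of B11 in the fit, which leaves out the THP1 spread, these calls were kept except that of SLC6A8. A count of 3 of 6 is near the share of all genes that passed in B11, so the counts show nothing particular to these genes, and the values of each gene are given below. In such bulk samples fewer cells that express a gene and less RNA per cell cannot be told apart.

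**Figure D1:**
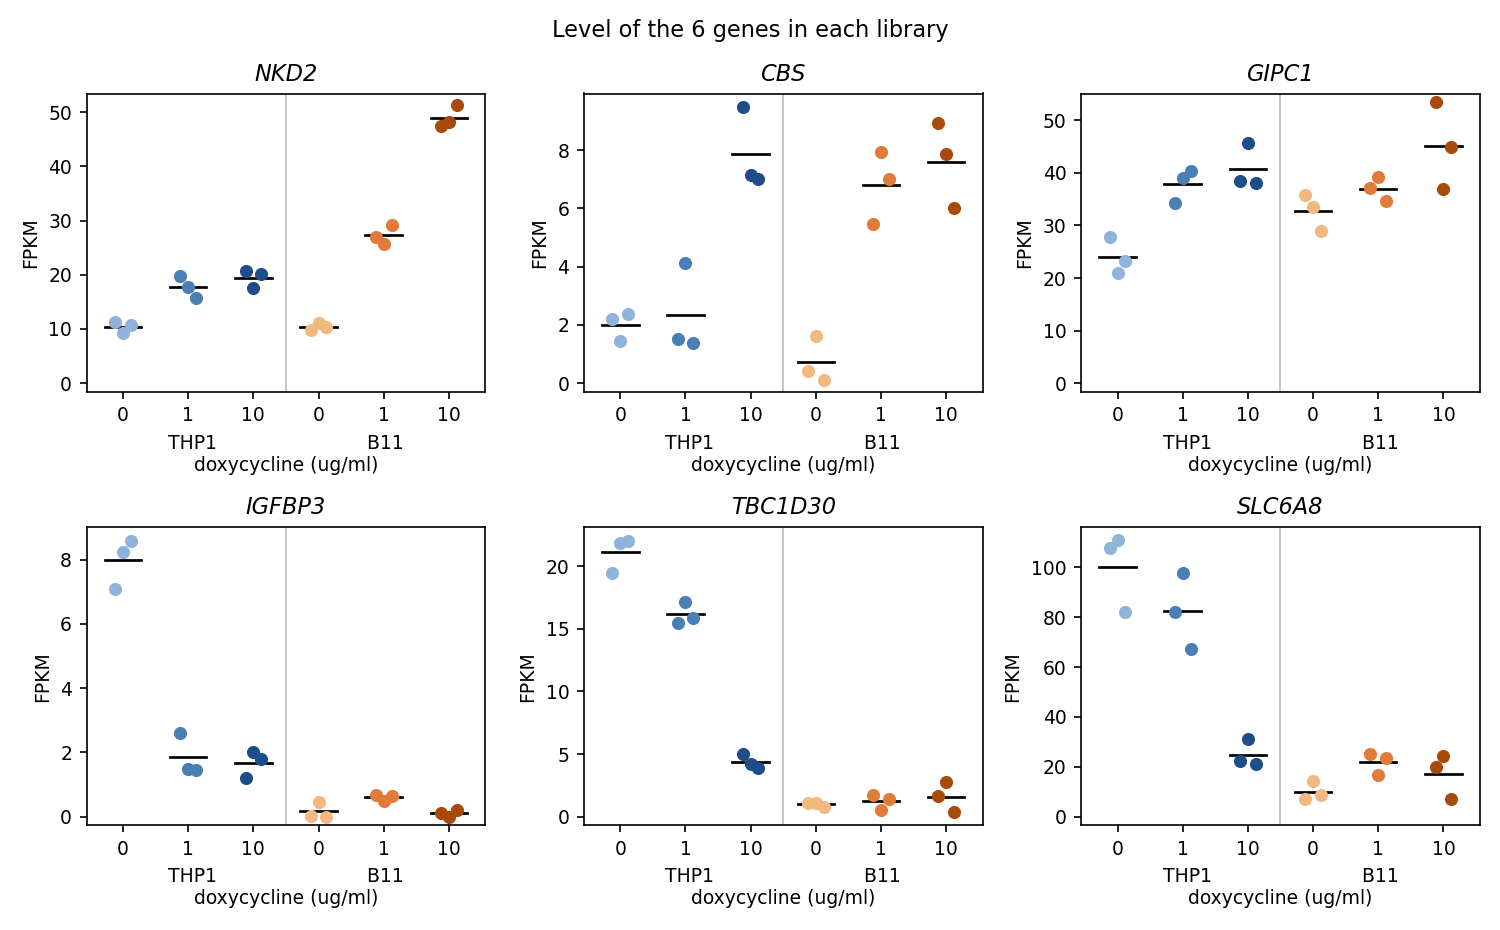
Level of each gene (FPKM, linear axis) in the 18 libraries by line and doxycycline dose (ug/ml); each point is a library and each bar the mean of 3. NKD2 in B11 reached 47.4 to 51.3 FPKM at 10 ug/ml, while IGFBP3, TBC1D30 and SLC6A8 were high only in THP1 at 0 ug/ml, or at 0 and 1 ug/ml.

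NKD2 rose with the dose in B11, and started from the same level in both lines. The gene (ENSG00000145506) lies at chr5:1008829-1038943 on the plus strand of GRCh38. In THP1 it was at 11.3, 9.31 and 10.8 FPKM without doxycycline, at 19.8, 17.7 and 15.7 at 1 ug/ml and at 20.7, 17.6 and 20.1 at 10 ug/ml. The untreated THP1 libraries lay below all 6 treated ones, and the libraries of the 2 doses overlapped. In B11 it was at 9.86, 11.03 and 10.3 FPKM without doxycycline, at 26.9, 25.7 and 29.2 at 1 ug/ml and at 47.4, 48.1 and 51.3 at 10 ug/ml. The 3 B11 groups did not overlap. Mean levels were 10.4 ± 0.588 FPKM (SD, n = 3) in untreated B11 and 10.4 ± 1.01 in untreated THP1, and 48.9 ± 2.12 and 19.5 ± 1.61 at 10 ug/ml.

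NKD2 increased in B11 by 1.31 (SE 0.10) on the log2(FPKM + 1) scale at 1 against 0 ug/ml (limma adjusted p = 8.81e-08). It increased by 2.13 (SE 0.10) at 10 against 0 ug/ml (limma adjusted p = 3.29e-10) and by 0.82 (SE 0.10) at 10 against 1 ug/ml (limma adjusted p = 8.47e-05). As ratios of mean FPKM the 2 doses gave 2.62-fold and 4.70-fold the untreated level. In THP1 the same ratios were 1.70 and 1.86, and the second dose step gave 1.097-fold. The change in B11 minus that in THP1 was 0.60 at 1 ug/ml and 1.29 at 10 ug/ml on the log2(FPKM + 1) scale, which was not tested because THP1 chose the gene. NKD2 ranked 7th of 17 genes called higher in THP1 by size and 224th of 3784 in B11 at 10 ug/ml.

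CBS reached a like level in both lines at 10 ug/ml but was near it in B11 already at 1 ug/ml. The gene (ENSG00000160200) lies at chr21:43053191-43076943 on the minus strand. In THP1 it was at 2.20, 1.44 and 2.36 FPKM without doxycycline, at 1.52, 4.11 and 1.38 at 1 ug/ml and at 9.47, 7.14 and 6.99 at 10 ug/ml. In THP1 the 3 libraries at 10 ug/ml stood above the other 6, and library B at 1 ug/ml lay between. In B11 it was at 0.416, 1.61 and 0.117 FPKM without doxycycline, at 5.46, 7.94 and 6.99 at 1 ug/ml and at 8.92, 7.86 and 6.01 at 10 ug/ml. The 6 treated B11 libraries lay above the 3 untreated ones, and the 2 doses overlapped.

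CBS increased in B11 by 2.27 (SE 0.32) on the log2(FPKM + 1) scale at 1 ug/ml (limma adjusted p = 4.63e-05) and by 2.41 (SE 0.32) at 10 ug/ml (limma adjusted p = 2.11e-05). The step from 1 to 10 ug/ml was 0.14 (95% interval -0.54 to 0.82, limma adjusted p = 0.836). In THP1 the corresponding differences were 0.08 at 1 ug/ml, 1.57 at 10 ug/ml and 1.49 for the step from 1 to 10 ug/ml. The change in B11 minus that in THP1 was 2.19 at 1 ug/ml and 0.84 at 10 ug/ml, and was not tested. Mean levels at 10 ug/ml were 7.87 ± 1.39 FPKM in THP1 and 7.60 ± 1.47 in B11. CBS had the first place by size among the 17 genes called higher in THP1.

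A second copy of the gene, CBSL (chr21:6444869-6468040), shares 92.0% of the 30-base words of the longest CBS protein-coding transcript, so reads could be split between them. CBSL was at 0.311 FPKM or less in 17 libraries and at 1.43 in THP1 at 1 ug/ml, library C, where CBS itself was at 1.38. With both copies summed, means were 2.02 ± 0.504, 2.82 ± 1.32 and 7.97 ± 1.37 FPKM in THP1 and 0.713 ± 0.788, 7.04 ± 1.19 and 7.73 ± 1.45 in B11 at 0, 1 and 10 ug/ml. The summed level increased in B11 by 2.43 (SE 0.30) at 10 ug/ml (limma adjusted p = 1.07e-05), and over all alternatives the adjusted p of CBS was 6.08e-06 to 0.0046.

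GIPC1 rose less in B11 at 10 ug/ml than NKD2 and CBS did, and its call in B11 was lost without either of 2 libraries. The gene (ENSG00000123159) lies at chr19:14477760-14496149 on the minus strand. In THP1 it was at 27.8, 20.9 and 23.2 FPKM without doxycycline, at 34.3, 39.1 and 40.3 at 1 ug/ml and at 38.5, 45.6 and 38.1 at 10 ug/ml. The untreated THP1 libraries were below all treated ones. In B11 it was at 35.9, 33.5 and 28.9 FPKM without doxycycline, at 37.2, 39.2 and 34.6 at 1 ug/ml and at 53.5, 36.9 and 44.8 at 10 ug/ml. B11 libraries at 1 ug/ml overlapped with the untreated ones, and those at 10 ug/ml lay above the untreated ones by a narrow margin.

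GIPC1 increased in B11 by 0.44 (SE 0.14) on the log2(FPKM + 1) scale at 10 ug/ml (limma adjusted p = 0.0163), and its difference at 1 ug/ml was 0.17 (limma adjusted p = 0.349). The call at 10 ug/ml was lost without library C of untreated B11 (0.36, limma adjusted p = 0.073) and without library A at 10 ug/ml (0.31, limma adjusted p = 0.0889). It was also lost when only the 6 libraries compared entered the fit (adjusted p = 0.0783), and over all alternatives the adjusted p was 0.00405 to 0.0889. In THP1 the differences were 0.64 at 1 ug/ml and 0.74 at 10 ug/ml. Untreated B11 (32.7 ± 3.52 FPKM) was already above untreated THP1 (24.0 ± 3.51), with no overlap, and at 10 ug/ml the lines overlapped at 45.1 ± 8.26 and 40.7 ± 4.23 FPKM.

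**Figure D2:**
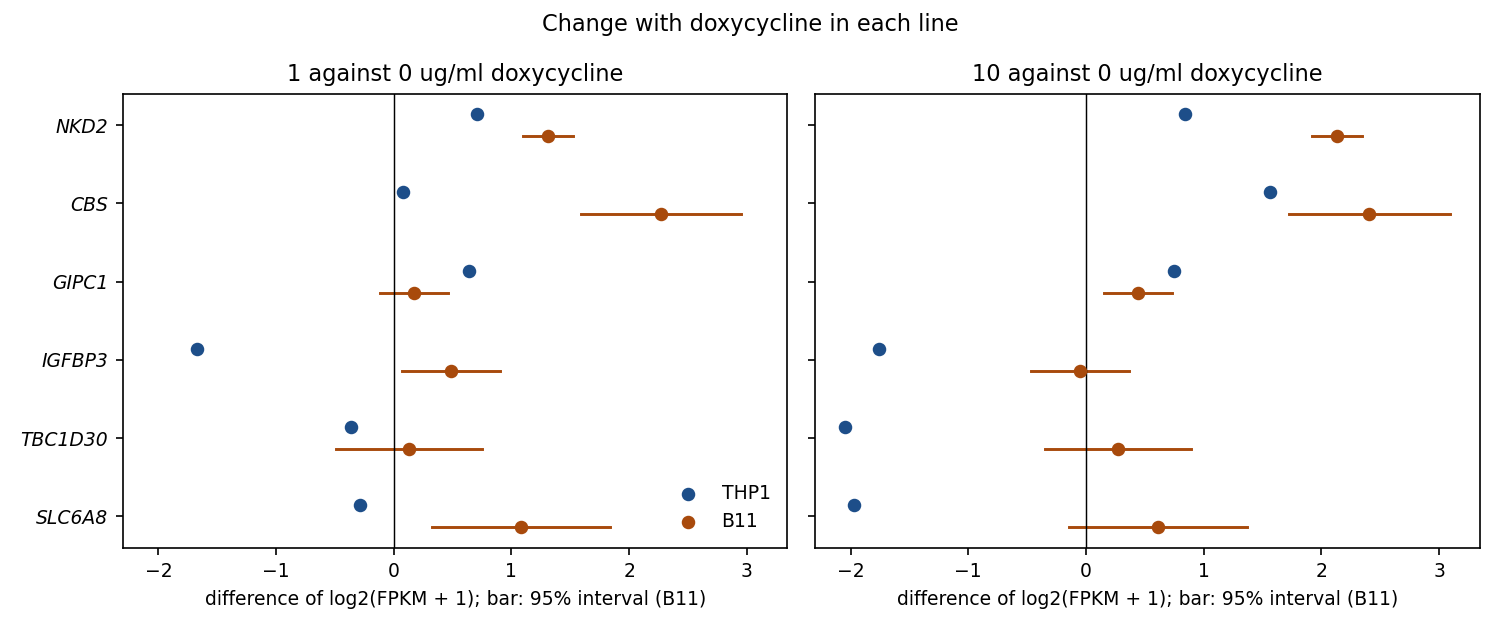
Difference of mean log2(FPKM + 1) against untreated cells of the same line at 1 ug/ml (left) and 10 ug/ml (right) for each gene; points are THP1 or B11, and bars are 95% intervals, drawn for B11 alone because THP1 chose the genes. IGFBP3, TBC1D30 and SLC6A8 are at -1.76, -2.05 and -1.97 in THP1 at 10 ug/ml and at -0.05, 0.27 and 0.61 in B11.

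IGFBP3 was low in treated THP1 and close to 0 in B11 at every dose. The gene (ENSG00000146674) lies at chr7:45912245-45921874 on the minus strand. In THP1 it was at 7.10, 8.25 and 8.59 FPKM without doxycycline, at 2.60, 1.49 and 1.46 at 1 ug/ml and at 1.22, 1.998 and 1.80 at 10 ug/ml. The untreated THP1 libraries stood clear of the treated ones, and the 2 doses overlapped, with mean levels lower than untreated by 4.31-fold and 4.78-fold. In B11 it was at 0.0343, 0.447 and 0 FPKM without doxycycline, which are about 1.06, 11.9 and 0 fragments. At 1 ug/ml B11 had 0.675, 0.499 and 0.632 FPKM, or about 19.5, 19.2 and 22.4 fragments, and at 10 ug/ml 0.101, 0 and 0.215 FPKM, or about 3.17, 0 and 6.35 fragments. B11 libraries at 1 ug/ml lay narrowly above the other 6 B11 libraries.

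No B11 contrast of IGFBP3 passed the test. The difference at 10 against 0 ug/ml was -0.05 (95% interval -0.47 to 0.36, limma adjusted p = 0.86), and that at 1 against 0 ug/ml was 0.48 (0.07 to 0.90, limma adjusted p = 0.0652). The second of these passed with a pseudocount of 0.1 (1.84, adjusted p = 0.0177), without library B of untreated B11 (0.65, limma adjusted p = 0.0212) and without library A of THP1 at 1 ug/ml, which enters only through the shared spread (adjusted p = 0.0457), over alternatives that gave 0.0177 to 0.214. The difference at 10 against 1 ug/ml was -0.54 (limma adjusted p = 0.089), and it passed with a pseudocount of 0.1 (-1.91, adjusted p = 0.0361) and with only the 6 libraries compared (adjusted p = 0.0412), over alternatives that gave 0.0361 to 0.33. The level of untreated B11, 0.160 ± 0.249 FPKM, leaves no room on this scale for a fall of the size described in THP1, -1.76. IGFBP3 passed the filter on low values through THP1, since none of its B11 libraries reached 1 FPKM.

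TBC1D30 was high in THP1 at 0 and 1 ug/ml, lower at 10 ug/ml, and low in B11. The gene (ENSG00000111490) lies at chr12:64780516-64881032 on the plus strand. In THP1 it was at 19.4, 21.9 and 22.0 FPKM without doxycycline, at 15.4, 17.2 and 15.9 at 1 ug/ml and at 5.03, 4.23 and 3.85 at 10 ug/ml. The 3 THP1 groups did not overlap, and the mean at 10 ug/ml was lower than untreated by 4.83-fold. In B11 it was at 1.08, 1.13 and 0.735 FPKM without doxycycline, at 1.73, 0.545 and 1.38 at 1 ug/ml and at 1.68, 2.75 and 0.340 at 10 ug/ml. The B11 groups overlapped, and all 9 B11 libraries lay below every THP1 library.

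The difference of TBC1D30 in B11 was 0.13 at 1 ug/ml (95% interval -0.49 to 0.75, limma adjusted p = 0.769) and 0.27 at 10 ug/ml (-0.35 to 0.89, limma adjusted p = 0.491). Library C at 10 ug/ml, at 0.340 FPKM, decided the second of these, since without it the difference was 0.68 (SE 0.22, limma adjusted p = 0.0256). Without library B at that dose it was -0.06 (limma adjusted p = 0.898), and these were the ends of the range over alternatives. The untreated B11 mean of 0.981 ± 0.215 FPKM leaves no room on this scale for a fall of the size described in THP1, -2.05.

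SLC6A8 had the highest level of the 6 genes in untreated THP1, 100.2 ± 15.9 FPKM, and 10.1 ± 3.86 in untreated B11. The gene (ENSG00000130821) lies at chrX:153688099-153696593 on the plus strand. In THP1 it was at 108, 111 and 82.0 FPKM without doxycycline, at 82.0, 97.7 and 67.3 at 1 ug/ml and at 22.5, 31.3 and 21.0 at 10 ug/ml. The untreated THP1 libraries and those at 1 ug/ml overlapped, and those at 10 ug/ml lay below both, with a mean lower than untreated by 4.02-fold. In B11 it was at 6.97, 14.4 and 8.83 FPKM without doxycycline, at 25.2, 16.6 and 23.6 at 1 ug/ml and at 19.96, 24.5 and 7.08 at 10 ug/ml. The B11 libraries at 1 ug/ml lay above the untreated ones, and at 10 ug/ml libraries A and B did so while library C did not.

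SLC6A8 increased in B11 by 1.08 (SE 0.35) on the log2(FPKM + 1) scale at 1 ug/ml (limma adjusted p = 0.0263), where the difference in THP1 was -0.28 with overlapping libraries. This call was lost in 7 of 28 alternative analyses, with adjusted p between 0.0552 and 0.106 (0.00296 to 0.106 over all). It was lost with only the 9 libraries of B11 in the fit (SE 0.44, limma adjusted p = 0.0925). The call thus depends on the spread to which the THP1 libraries contribute. It was also lost without a filter, without library A or C of untreated B11, and without library A or C at 1 ug/ml. The remaining loss, without both libraries that stand apart, left 1 library at 1 ug/ml and decides nothing. The difference at 10 ug/ml was 0.61 (95% interval -0.14 to 1.37, limma adjusted p = 0.183). Without library C at 10 ug/ml it was 1.12 (SE 0.27, limma adjusted p = 0.00481), and alternatives gave 0.00481 to 0.571. In THP1 the difference at 10 ug/ml was -1.97. The untreated B11 mean of 3.41 on this scale leaves room for a fall of that size, unlike the means of IGFBP3 and TBC1D30.

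The start of SLC6A8 overlaps PNCK, a calcium/calmodulin-dependent protein kinase gene on the opposite strand (chrX:153669730-153689010). No source used here says whether fragments were assigned by strand, so those of the shared stretch may count for either gene. PNCK, looked at after its values were seen, was at 55.9 ± 3.58 FPKM in untreated THP1, at 44.3 ± 6.01 at 1 ug/ml and at 23.9 ± 7.47 at 10 ug/ml. In untreated B11 it was listed at 0 in all 3 libraries, at 1 ug/ml it was at 4.31, 10.1 and 8.54 FPKM, and at 10 ug/ml at 4.79, 9.78 and 0. PNCK was thus high and low in the same groups as SLC6A8, and it was listed at 0 in the same library C of B11 at 10 ug/ml where SLC6A8 was at its untreated level. The part of PNCK in the SLC6A8 values was not tested. SLC6A10P, a pseudogene copy of SLC6A8, was listed at 0 in 17 libraries and at 0.165 FPKM in the other one.

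**Figure D3:**
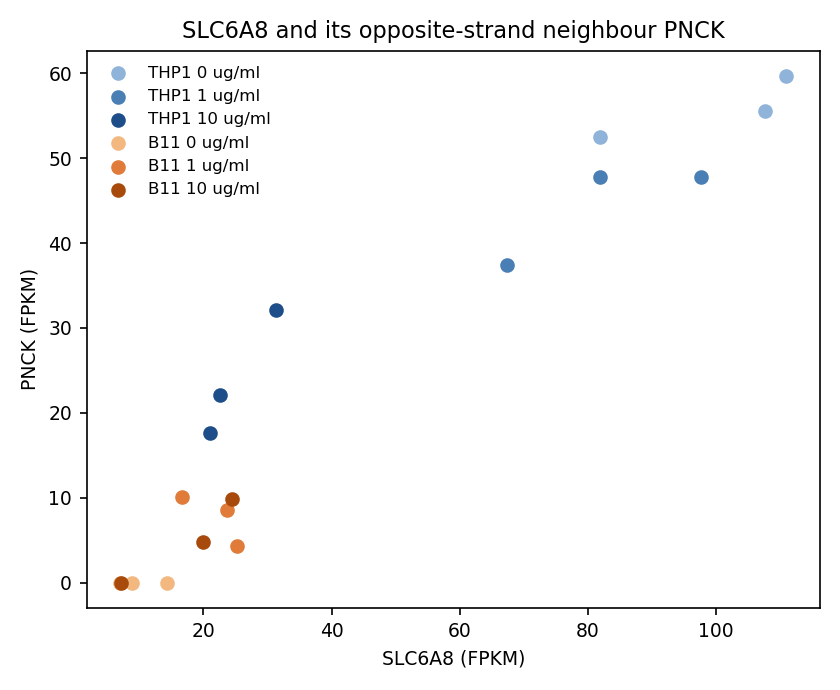
Level of PNCK against that of SLC6A8 (both FPKM, linear axes) in the 18 libraries, coloured by line and dose. Untreated THP1 lies at the top right, and untreated B11 and library C of B11 at 10 ug/ml lie at 0 FPKM of PNCK with 6.97 to 14.4 FPKM of SLC6A8.

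Of the 6 genes, those that differed most between the untreated lines were the 3 that were lower with the drug in THP1. Against untreated THP1, B11 was at -0.00 for NKD2, 0.44 for GIPC1 and -0.89 for CBS on the log2(FPKM + 1) scale, and at -2.97 for IGFBP3, -3.48 for TBC1D30 and -3.24 for SLC6A8. As ratios of mean FPKM, untreated B11 was lower than untreated THP1 by 21.5-fold for TBC1D30 and by 9.96-fold for SLC6A8. At 10 ug/ml the same differences were 1.29, 0.13 and -0.05 for NKD2, GIPC1 and CBS, and -1.26, -1.17 and -0.65 for IGFBP3, TBC1D30 and SLC6A8. These differences share the untreated THP1 libraries with the THP1 changes that chose the genes, so they are given side by side with no test.

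**Figure D4:**
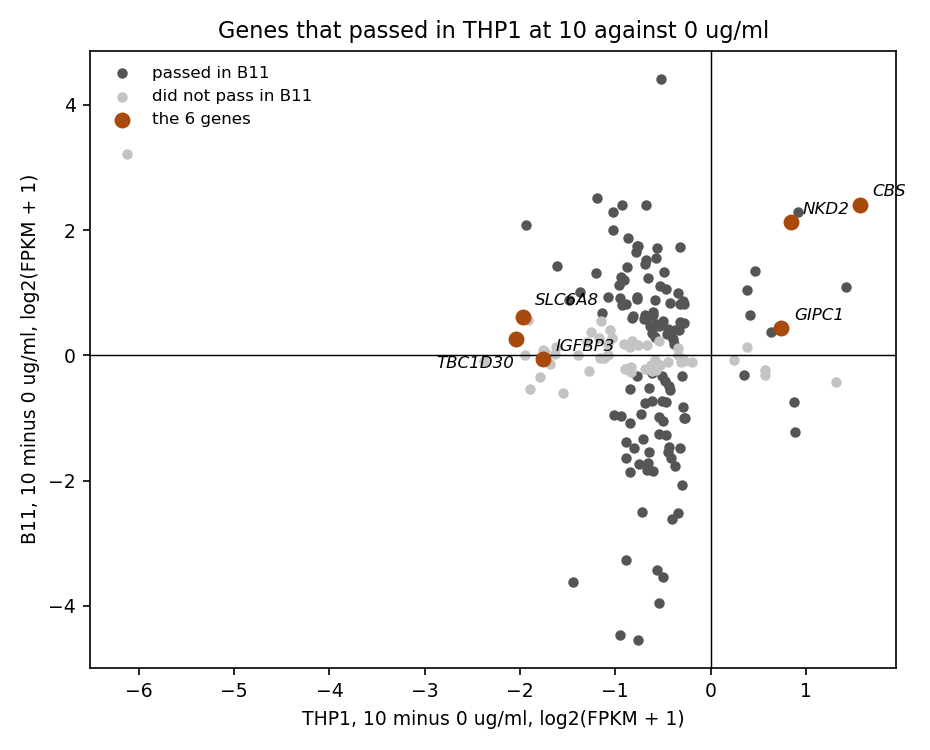
Difference of mean log2(FPKM + 1) at 10 against 0 ug/ml in B11 against that in THP1 for the 179 genes that passed in THP1; dark points passed in B11, light points did not, and the 6 genes are labelled. NKD2, CBS and GIPC1 lie in the upper right, and IGFBP3, TBC1D30 and SLC6A8 lie between -0.05 and 0.61 on the B11 axis.

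Among all 17 genes called higher in THP1 at 10 ug/ml, 9 (52.9%) were called higher in B11 and 3 (17.6%) lower. Of all genes tested, 21.6% were called higher and 21.3% lower in B11. The calls in both lines use the same spread of each gene from 1 fit. Genes called in THP1 are therefore picked in part for a small spread, and pass more easily in B11. The shares over all genes are not an even baseline for them, and no sharing between the lines is read from these counts. Over all genes tested in THP1, 0.0968% were called higher and 0.923% lower. The 17 and the 162 depend on single libraries: without 1 library they ranged from 7 (without library B or C of untreated THP1, or A at 10 ug/ml) to 44 (without library B of untreated B11), and from 62 (without library B or C of untreated THP1) to 173 (without library B of untreated B11). The 9 were 0.238% of the 3784 genes called higher in B11. Of the 162 genes called lower in THP1, 50 (30.9%) were called lower in B11 and 62 (38.3%) higher. The 50 were 1.34% of the 3736 genes called lower in B11. NKD2, CBS and GIPC1 are among the 9, and none of IGFBP3, TBC1D30 and SLC6A8 is among the 50 or the 62.

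Genes of the same pathways were counted in lists at 10 against 0 ug/ml, and each of the first 6 lists below includes the 1 of the 6 genes that belongs to it. The counts in B11 stand beside 21.6% of all genes called higher and 21.3% called lower there. Only 1.02% of all genes were called in THP1. The 1 gene called there in each of these 6 lists is the chosen one, which the choice fixed. Nothing is read from the THP1 counts. In the Wnt and Dishevelled feedback list 13 of 25 genes tested rose and 3 fell in B11 at 10 ug/ml (median log2 difference 0.33, against -0.02 over all genes), and in THP1 NKD2 was the only one called. NKD1, the paralog of NKD2, rose from 0.252 ± 0.0731 to 2.66 ± 0.270 FPKM in B11 (limma adjusted p = 1.72e-05) and averaged 0.903 ± 0.260 in untreated and 1.51 ± 0.647 in THP1 at 10 ug/ml. KREMEN2, a receptor of the Wnt inhibitor Dickkopf, rose in B11 from 0.521 ± 0.225 to 1.98 ± 0.460 FPKM (limma adjusted p = 0.000102).

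In the list of the methionine cycle, transsulfuration and hydrogen sulfide 10 of 23 genes rose and 4 fell in B11 (median 0.00), and in THP1 CBS was the only one called. AHCY, which hydrolyses S-adenosylhomocysteine to homocysteine, rose from 62.8 ± 1.81 to 122.5 ± 4.10 FPKM (limma adjusted p = 1.81e-09). GSS, glutathione synthetase, rose from 29.1 ± 1.39 to 53.5 ± 3.07 FPKM (limma adjusted p = 2.03e-07), and AHCYL1, an AHCY-like protein, from 40.4 ± 3.92 to 73.95 ± 9.56 (limma adjusted p = 3.03e-06).

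In the GIPC list of family members and binding partners 2 of 16 genes, GIPC1 and SDC4, rose and 4 fell in B11 (median -0.20), which shows nothing particular to the list, and in THP1 GIPC1 was the only one called. The proteoglycan syndecan-4, SDC4, rose from 2.18 ± 0.442 to 6.67 ± 0.388 FPKM (limma adjusted p = 4.00e-06). TPBG, the 5T4 glycoprotein of the cell surface, fell from 30.9 ± 4.85 to 13.5 ± 1.18 FPKM (limma adjusted p = 5.58e-07), and the semaphorin receptor PLXND1 from 115.9 ± 19.1 to 54.5 ± 4.01 (limma adjusted p = 6.72e-06).

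In the insulin-like growth factor list 5 of 16 genes rose and 3 fell in B11 (median -0.19), and in THP1 IGFBP3 was the only one called. The binding proteins moved in different directions: IGFBP7 fell in B11 from 218.3 ± 6.55 to 137.6 ± 8.48 FPKM (limma adjusted p = 1.21e-07), and IGFBP4 rose from 6.44 ± 0.522 to 19.3 ± 3.81 (limma adjusted p = 2.14e-07). IGFBP2 rose in B11 from a range of 28.9 to 31.9 FPKM to a mean of 51.3 ± 3.52 (limma adjusted p = 2.07e-07) and was at 137.7 ± 1.105 in untreated THP1.

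The TBC1D list also holds the related EVI5, RABGAP1 and RABGAP1L and the Rab proteins RAB8A and RAB8B. In it 6 of 33 genes rose and 11 fell in B11 (median -0.18), and in THP1 TBC1D30 was the only one called. The share of rises was near the 21.6% of all genes, and that of falls was above the 21.3% of all genes. TBC1D1, which acts on Rab proteins of glucose transporter vesicles, rose from 62.1 ± 6.66 to 137.4 ± 6.81 FPKM (limma adjusted p = 8.45e-09). TBC1D16 rose from 5.33 ± 0.819 to 12.9 ± 0.733 FPKM (limma adjusted p = 5.95e-06), and TBC1D10C fell from 9.56 ± 0.792 to 2.33 ± 0.591 (limma adjusted p = 1.46e-05).

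In the creatine list 3 of 5 genes tested rose and none fell in B11 (median 1.18), and in THP1 SLC6A8 was the only one called. GATM and GAMT carry out the 2 steps of creatine synthesis, and CKB is the brain-type creatine kinase. CKB rose in B11 from 46.1 ± 11.6 to 173.4 ± 17.5 FPKM (limma adjusted p = 1.20e-08) and averaged 117.3 ± 2.88 in untreated THP1 and 98.2 ± 5.52 at 10 ug/ml. GAMT rose in B11 from 38.5 ± 5.51 to 88.3 ± 6.03 FPKM (limma adjusted p = 1.80e-07), and GATM from 12.7 ± 4.26 to 41.1 ± 4.28 (limma adjusted p = 3.54e-05).

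The products of the 13 mitochondrially encoded protein genes are made on the ribosomes that doxycycline slows. Of these genes 11 fell and none rose in B11 at 10 ug/ml (median -0.83). None was called in THP1 (median 0.15), where only 1.02% of all genes tested were. MT-CO1, a subunit of cytochrome oxidase, fell in B11 from 6378 ± 861 to 2609 ± 474 FPKM (limma adjusted p = 2.43e-07) and was at 3215 ± 36.3 and 3572 ± 60.5 in THP1. MT-ND5 and MT-ND6, complex I subunits that lie on opposite strands next to each other, also fell in B11 (limma adjusted p = 3.17e-07 and 1.22e-07).

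Likeness of pattern was measured as Pearson's r of log2(FPKM + 1) over the 18 libraries, among protein-coding genes with a mean of at least 5 FPKM. The libraries fall into 2 lines and 3 doses, so r is a description that reflects these groups. The 3 genes most like NKD2 were MATK (0.94), MRC2 (0.94) and EEF1A2 (0.93). MRC2, an endocytic collagen receptor, averaged 137.7, 149.7 and 153.8 FPKM in THP1 and 130.8, 221.8 and 364.9 in B11 over the doses. For CBS they were PSAT1 (0.91), RNF187 (0.91) and RPF2 (0.90). PSAT1, an enzyme of serine synthesis, averaged 60.3, 59.2 and 131.1 FPKM in THP1 and 19.1, 229.1 and 182.1 in B11. As for CBS, its mean was above the untreated one at both doses in B11. In THP1 the mean of PSAT1 was above the untreated one at 10 ug/ml alone. PSAT1 was not among the 179 genes called in THP1 at 10 against 0 ug/ml.

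For GIPC1 the closest genes were HNF4G (0.73), ATG101 (0.72) and KAT7 (0.72), a weaker likeness than for the other 5. For IGFBP3 they were SH3GL1 (0.92), POU2F2 (0.91) and JUN (0.89). JUN, a subunit of the AP-1 transcription factor, averaged 16.4, 11.9 and 8.65 FPKM in THP1 and 2.41, 3.91 and 1.34 in B11. For TBC1D30 they were SLC6A8 (0.95), SLC39A1 (0.94) and H2AFY (0.94), and for SLC6A8 they were TUBA1A (0.96), MVD (0.95) and C6orf223 (0.95). MVD, an enzyme of the mevalonate pathway, averaged 114.5, 100.3 and 51.1 FPKM in THP1 and 33.4, 51.1 and 56.6 in B11. Among the 6 genes themselves, r was 0.95 for TBC1D30 with SLC6A8, 0.86 for IGFBP3 with TBC1D30 and 0.83 for IGFBP3 with SLC6A8. These 3 were chosen with the same direction in THP1, whose libraries enter r, so the choice itself raises these values and nothing is read from them. The same holds for the 3 that were higher, where NKD2 was at 0.77 with CBS and 0.70 with GIPC1, and CBS at 0.57 with GIPC1.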

How the data were processed

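RNA of 18 plates (6 groups of 3, by line and doxycycline dose) had been sequenced from total RNA. The authors aligned reads with HISAT2 to GRCh38 and computed the deposited FPKM values with Cuffnorm, per the submitters' processing notes. Versions, annotation and strandedness are not given there. The table has 1 column per library, and since its header names no unit, FPKM was inferred from the tool and the values. IDs were named from GENCODE 29 (57047 of 60658 matched). Depth came from steps of low values in single-transcript genes, where 83.59 to 87.71% of values of up to 10 fragments were whole within 0.15 fragments.

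Values were taken as log2(FPKM + 1). A gene was kept if 3 or more libraries reached 1 FPKM (17555 genes). One limma 3.58.1 model (R 4.3.3, trended moderation) with 6 group means was fitted to all 18 libraries, with the Benjamini-Hochberg adjustment over all genes tested in a comparison, and 0.05 as the threshold. Fold changes on this scale understate those of low genes. The script was tested on simulated data with 200 changed genes, where 56% of log2 changes of 1 and 90% of changes of 2 were recovered. Fewer genes changed there than were called in B11, so these shares do not carry over directly. A difference that did not pass is not shown to be absent. Plotting used matplotlib 3.10.9. Alternatives covered the pseudocount, filter, scaling, libraries in the fit, moderation, a replicate block and each library left out.

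The 6 genes, their pathway lists and the markers were chosen with earlier results of these data known. Other genes named are the 3 with the smallest p in B11 at 10 against 0 ug/ml in each pathway list and the 3 most alike in pattern. PNCK was added after its values were seen. Among the markers LYZ and CSF1R follow the rule on p. CD14, ITGAM and FCGR1A were named for their level or direction, and others for being at 0 throughout. One marker list is not reported here.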

Additional observations from a re-analysis of the deposited data

Results flagged for a closer look

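IGFBP3 was flagged for its change at 1 against 0 ug/ml, which is described here for both lines. All 3 treated THP1 libraries lay below all 3 untreated ones, and all 3 treated B11 libraries lay above all 3 untreated ones, so that the change in B11 minus that in THP1 was 2.16 on the log2(FPKM + 1) scale. This value holds the THP1 change of -1.68, from libraries that chose the gene. It was therefore not tested, and no difference between the lines is read from it. The B11 change of 0.48 did not pass (limma adjusted p = 0.0652). The B11 levels behind it were at most 0.675 FPKM, or up to about 22.4 fragments a library.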

How the results depend on the processing

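Of 501 alternative values of the 6 genes in B11, 476 kept their direction and side of the threshold, 10 lost a call, 7 gained one and 8 changed sign. NKD2 and CBS kept every call; CBS and IGFBP3 have no value under the filter on a mean of at least 5 FPKM. The 8 sign changes were all in differences that had not passed. Leaving out each library in turn moved IGFBP3 at 10 against 0 ug/ml between -0.15 and 0.12. It moved TBC1D30 between -0.058 and 0.68 at 10 against 0, between -0.040 and 0.37 at 1 against 0 and between -0.19 and 0.55 at 10 against 1 ug/ml. SLC6A8 at 10 against 1 ug/ml lay between -0.79 and 0.041. TBC1D30 at 10 against 1 ug/ml was -0.20 without the 2 libraries that stand apart. The cause of these changes, beyond the fewer libraries, was not tested.

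The number of genes called in B11 was 7520 at 10 against 0, 6516 at 1 against 0 and 2249 at 10 against 1 ug/ml. Without the 2 libraries that stand apart, an alternative chosen after seeing the data, the last 2 counts were 4071 and 611. Leaving out each library in turn gave 6557 to 7549, 5551 to 6544 and 1482 to 2343 in B11, the lowest of the last without library C at 10 ug/ml. In THP1 it gave 69 to 217 (179 with all libraries), 0 to 6 (2) and 13 to 112 (52) in the same order. THP1 at 10 against 0 gave 119 genes with the 9 libraries of the line and 46 with the 6 compared. THP1 at 1 against 0 gave 23 without a filter and 1 with a mean of at least 5 FPKM, with TPM, with median-of-ratios scaling or with the 9 libraries. THP1 at 10 against 1 gave 31 with a pseudocount of 0.1, 34 without a filter and 11 with the 6 libraries.

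Deviations of same-letter libraries correlated at -0.07 to 0.09, and 7 of 18 libraries correlated best with their own letter. These values showed no clear pairing by plate letter, and whether plates were handled by letter was not tested. With the replicate block the counts were 7422, 6377 and 2082 in B11 and 136, 0 and 18 in THP1, and no call of the 6 genes in B11 changed. Depth limits IGFBP3 in B11, where 0 to 22.4 fragments lie behind each value.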
